A study of Rattus norvegicus with 24 samples.

Results

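Very long genes are described here across all treatments of primary rat striatal neurons. A gene was taken as very long when the distance from the first to the last base of its annotated transcripts was at least 300 kb. Several neuronal families were set aside by name: genes whose symbols begin with Kcn, Gri, Gabr, Cacn, Scn, Pde, Rgs, Hdac or Akap, and Foxp1, Foxp2, Ebf1, Rarb, Meis2, Ntrk2, Ntrk3, Igf1r and Gphn. This rule took 350 of the 32883 genes in the annotation. Of these, 309 passed the filter on low values and were tested, among 13999 genes tested in all. The other 41 very long genes had at most 0.278 FPKM on average (a fragment count divided by transcript length and by sequencing depth) and are not described further. The rule used the annotation and no measured value.

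Neurons from the striatum of neonatal rats were kept in culture to day 7, and total RNA was sequenced after removal of ribosomal RNA. The treatments crossed SKF, an agonist of the dopamine D1 receptor, with a bromodomain inhibitor, with DMSO as the vehicle. Experiment 1 compared DMSO, SKF, JQ1 and SKF plus JQ1 after 60 min. Experiment 2 compared DMSO, SKF, iBD2 and SKF plus iBD2 after 60 min, and experiment 3 repeated the JQ1 design at 24 h. Each of the 12 groups had 2 libraries except SKF plus iBD2, of which 1 was analysed here. Replicates carry the numbers 5 and 6 in experiments 1 and 3, and 1 and 2 in experiment 2. The labels give no doses. Nothing in them ties the libraries of a group to separate cultures, so each p-value reflects how far these libraries spread, and that spread may be technical.

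As background, RNA polymerase II has to travel the whole length of a gene before a full transcript is released, which for the longest genes takes hours. Neurons express many such genes, a large share of which encode synaptic adhesion molecules, axon guidance receptors, scaffolds and channels. BET proteins, the targets of JQ1, read acetylated histones and help to bring in P-TEFb, the kinase that releases paused polymerase into elongation. The measurements below are levels of annotated transcripts. Reads in introns, which would follow the polymerase along a gene, were not analysed here.

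The promoters of 4 very long genes are shown first. Their transcripts moved furthest down or up in both 24 h comparisons among very long genes with a promoter in the RefSeq table. Mtus2 and Nalcn fell most with JQ1, and Mad1l1 and Snd1 rose most. Each sequence runs 5′ to 3′ from 250 bases before to 50 bases after the start site that RefSeq gives in build GRCr8, and capitals mark matches to the motifs searched. The windows are chr12:12114454-12114753 on the minus strand, chr15:107147809-107148108 on the minus strand, chr12:19434532-19434831 on the plus strand and chr4:58060439-58060738 on the plus strand.
Mtus2: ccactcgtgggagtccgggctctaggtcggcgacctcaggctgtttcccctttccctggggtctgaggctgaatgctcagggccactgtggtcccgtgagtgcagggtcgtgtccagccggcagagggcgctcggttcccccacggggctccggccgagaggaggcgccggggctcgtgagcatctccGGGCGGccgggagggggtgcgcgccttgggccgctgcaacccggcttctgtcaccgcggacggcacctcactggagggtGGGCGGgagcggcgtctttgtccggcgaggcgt
Nalcn: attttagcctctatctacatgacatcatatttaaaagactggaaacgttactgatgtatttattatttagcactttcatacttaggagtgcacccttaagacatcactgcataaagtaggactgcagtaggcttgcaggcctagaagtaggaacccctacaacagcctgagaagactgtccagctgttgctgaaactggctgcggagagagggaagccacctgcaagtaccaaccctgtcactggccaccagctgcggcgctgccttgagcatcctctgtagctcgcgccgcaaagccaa
Mad1l1: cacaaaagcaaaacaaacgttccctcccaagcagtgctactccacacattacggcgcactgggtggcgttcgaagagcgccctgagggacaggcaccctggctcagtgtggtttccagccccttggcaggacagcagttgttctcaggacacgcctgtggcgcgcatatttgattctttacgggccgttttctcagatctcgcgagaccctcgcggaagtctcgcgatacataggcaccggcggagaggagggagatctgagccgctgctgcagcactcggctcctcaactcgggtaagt
Snd1: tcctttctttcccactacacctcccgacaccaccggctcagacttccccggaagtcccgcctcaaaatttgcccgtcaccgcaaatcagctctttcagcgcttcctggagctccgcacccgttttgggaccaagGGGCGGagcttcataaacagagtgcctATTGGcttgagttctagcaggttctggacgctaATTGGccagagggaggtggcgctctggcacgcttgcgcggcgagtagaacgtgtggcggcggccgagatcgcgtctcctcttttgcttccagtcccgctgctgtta
The motifs searched on both strands were TATAAA (the TATA box), TGACGTCA (the cAMP response element), TGANTCA (the AP-1 site), CACGTG (an E-box), CCAAT (the CCAAT box) and GGGCGG (the GC box). No motif lies within another of them. The Mtus2 window held GGGCGG 2 times, and the Snd1 window held CCAAT 2 times, both on the other strand as ATTGG, and GGGCGG 1 time. The Nalcn and Mad1l1 windows held none of these letters. Of all 27457 promoter windows in the table, 34.9% held GGGCGG, 37.7% CCAAT, 14.3% TATAAA, 7.33% TGANTCA, 6.65% CACGTG and 1.91% TGACGTCA. Among the promoters of the tested shorter genes, 63.8% held GGGCGG, 37.8% CCAAT and 6.51% TATAAA, with 70.6% of those genes matched. The base composition also differed, with 72% G and C in the Mtus2 window, 48.7% in that of Nalcn, 58.7% in that of Mad1l1 and 59% in that of Snd1. A promoter matched by symbol for 226 of the 309 tested very long genes, 73.1% and under the 80% needed, so a comparison of motifs over the whole set is void. The 70.6% matched among the shorter genes is also under that limit, so their motif shares are no firm background.

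The very long genes differed from shorter genes in structure as well as span. The 350 genes comprised 242 with a span of 300 to 500 kb, 93 of 500 to 1000 kb and 15 of 1000 kb or more. The tested ones had a median span of 405 kb against 18.8 kb for the shorter tested genes, with a median of 19 exons against 8 and a longest transcript of 3852 against 2163 nucleotides. They were not weakly expressed, with a median of 10.6 FPKM against 7.36. They lay on all 20 autosomes and on X, and 200 of the 350 had at least 1 other annotated gene inside their span. Whether the authors' quantification used strand is not stated in the labels, so reads of nested and antisense genes may count for their host.

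A long span did not always mean a long transcript. In 271 of the 309 tested genes the most abundant transcript itself spanned at least 300 kb, and in 38 it was shorter. The longest entry, Mycbp2, an E3 ubiquitin ligase gene, spans 6361 kb in this annotation (chromosome 15, 87506959 to 93868301) and holds 34 other genes, but its most abundant transcript covers 70.7 kb. Next came Dmd, the dystrophin gene, at 2233 kb, Nrxn3, which encodes a presynaptic adhesion molecule, at 1934 kb, and the unnamed locus AABR07060487.1 at 1697 kb. Luzp2, Il1rapl2, Lrrc4c, AABR07057765.1 and Il1rapl1 followed, between 1678 and 1326 kb.

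FPKM is scaled to transcript length, so levels can be set against each other. Syt1, the calcium sensor of synaptic vesicles, was the most abundant very long gene at a mean of 419.9 FPKM over the 23 libraries, followed by the neuronal membrane glycoprotein gene Gpm6a at 401 FPKM. Then came Dner, a Notch-like transmembrane protein, at 149 FPKM, Ank2, which links membrane proteins to spectrin, at 146, and Astn1, which acts in neuron migration along glia, at 138. Negr1, Nell2, Celf2, Tcf4 and Nrcam followed between 127 and 98.9 FPKM. Among the longest, Nrxn3 had 78.9 FPKM and Dmd 3.703.

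The libraries held 4.36 to 14.9 gigabases of aligned sequence, computed from coverage and FPKM, and the very long genes took 2.98 to 3.72% of the bases in transcripts. All 16 listed markers of striatal projection neurons passed the filter, whereas 6 of the 9 fibroblast, endothelial and mural markers in the annotation were under it. The filter was also passed by 11 of 11 microglia, 10 of 11 astrocyte and 10 of 11 oligodendrocyte lineage markers. Of the excitatory neuron and interneuron markers 13 of 14 passed, so passing does not set striatal neurons apart. From here on, FPKM are divided by a size factor per library, fold changes are on the log2(FPKM + 0.5) scale with the SE from limma, and adjusted p values are limma's with Benjamini-Hochberg adjustment over the 13999 genes. A gene is called when that adjusted p is under 0.05. The largest changes between groups are named only where the libraries compared do not overlap, so that separation adds no support.

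The first question was which very long genes respond within 60 min to D1 receptor stimulation. Glcci1, a glucocorticoid-induced transcript, was the only one called over experiments 1 and 2. It read 24.9 and 27.4 FPKM with DMSO and 30.03 and 32.3 with SKF in experiment 1, and 29.002 and 28.4 with DMSO and 36.3 and 35.9 with SKF in experiment 2. Both SKF libraries lay above both DMSO libraries in each experiment, which the choice of the largest changes required. The log2 fold change was 0.29 ± 0.04 (limma adjusted p = 0.00031), with 0.25 in experiment 1 (adjusted p = 0.048) and 0.33 in experiment 2 (adjusted p = 0.0042). Of the 309 tested very long genes 1 was higher and 0 lower, where 3.11% of all tested genes were higher and 0.864% lower. In experiment 1 the same gene alone was called higher, against a background of 1.58% higher and 1.71% in either direction. The adjusted p of that call rose to 0.41, 0.053 and 0.47 when DMSO replicate 5, SKF replicate 5 and SKF replicate 6 were left out, and the call was also lost in most fits without 1 library of another group. In experiment 2 it was lost without DMSO replicate 2 (adjusted p = 0.057).

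In experiment 2, 2 very long genes were called higher, against 2.02% of all tested genes (2.32% in either direction). The other was Nell1, which encodes a secreted protein with EGF-like repeats, at 5.67 and 5.38 FPKM with DMSO and 6.77 and 6.404 with SKF. Its SKF libraries were both above the DMSO libraries there (0.23 ± 0.06, limma adjusted p = 0.042). In experiment 1 the same gene read 6.43 and 6.46 with DMSO and 6.36 and 6.33 with SKF, where the SKF libraries were slightly the lower. The call in experiment 2 did not hold when DMSO replicate 1, DMSO replicate 2, SKF replicate 1 or SKF replicate 2 was left out, with adjusted p values of 0.078, 0.31, 0.33 and 0.095.

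JQ1 for 60 min moved almost none of the very long genes. Against DMSO, 0 were called higher and 1 lower by limma, where 1.86% of all tested genes were higher and 2.54% lower (4.4% in all). Before adjustment, 6 were higher and 6 lower at p under 0.05, beside 893 and 1093 of the 13999 tested genes. With voom on estimated reads, 1 very long gene was called higher and 0 lower. The 1 called gene was AABR07064873.1, a locus of 11 transcripts with no gene symbol (chromosome 6, 98844926 to 99153551). It read 13.8 and 13.2 FPKM with DMSO and 10.6 and 11.2 with JQ1, with no overlap (−0.30 ± 0.08, adjusted p = 0.041). None of its FPKM came from transcripts of 300 kb or more, its most abundant transcript spanned 11.1 kb, and the call was lost when any 1 of the 4 libraries compared was left out (adjusted p from 0.10 to 0.30).

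With SKF present at 60 min, JQ1 moved 0 very long genes up and 0 down in limma, against 2.74% and 3.81% of all tested genes. At an unadjusted p under 0.05, 14 were higher and 5 lower, beside 1166 and 1277 of the 13999 tested genes. With voom, 1 very long gene was called higher and 0 lower. Nalcn, the sodium leak channel gene that fell furthest at 24 h without SKF, read 8.58 and 9.04 FPKM with DMSO and 9.57 and 9.23 with JQ1 at 60 min (0.09 ± 0.07, limma adjusted p = 0.68). Mad1l1, which rose furthest at 24 h, read 2.03 and 1.82 FPKM with DMSO and 2.203 and 1.87 with JQ1 (0.06 ± 0.10, adjusted p = 0.85). The interaction of SKF and JQ1 at 60 min was called for 0 very long genes by limma (background 0.00714%) and 0 by voom. An unadjusted p under 0.05 was found for 4 of them, beside 459 of the 13999 tested genes.

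The scarcity of calls at 60 min followed gene span. JQ1 against DMSO called 7.08% of the genes under 10 kb, 4.59% of those of 10 to 30 kb, 2.59% of those of 30 to 100 kb and 0.559% of those of 100 to 300 kb. From 300 to 500 kb the share was 0.469%, 1 gene of 213, and beyond 500 kb it was 0. Shorter genes weighted to the same FPKM classes as the very long genes were called in 4.604%, against 0.324% of the very long genes. The median SE was 0.077 for very long genes and 0.079 for the weighted shorter genes, and the median size of change was 0.052 against 0.074. SKF at 60 min gave the same order, with 6.12% of the genes under 10 kb called, 0.978% of those of 100 to 300 kb and 0.469% of those of 300 to 500 kb.

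**Figure D1:**
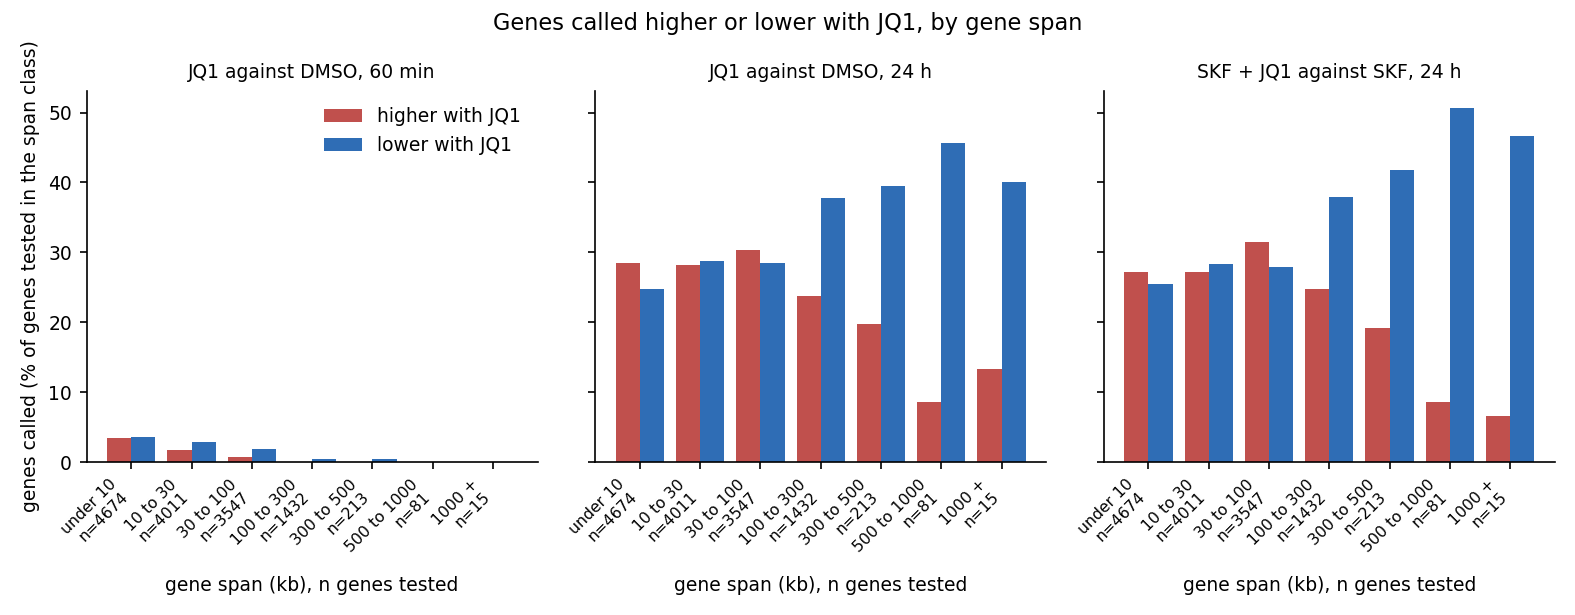
Share of tested genes called higher (red) or lower (blue) with JQ1 in each class of gene span, in percent of the genes tested in the class, for JQ1 against DMSO at 60 min and 24 h and for SKF plus JQ1 against SKF at 24 h, without the set-aside families. At 60 min the bars fall to 0 beyond 500 kb, whereas at 24 h the share of lower genes is 24.7% under 10 kb and 45.7% at 500 to 1000 kb.

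The inhibitor iBD2 for 60 min gave 0 called very long genes by limma, against 0.171% of all tested genes, and 0 by voom. At an unadjusted p under 0.05, 23 were higher and 3 lower, beside 491 and 432 of the 13999 tested genes. The median change of the very long genes was small and positive at 0.05, with 230 of 309 above 0. Over all tested genes the median was 0.00, with 7182 of 13999 above 0. Genes of 100 to 300 kb leaned the same way, with a median of 0.03 and 909 of 1432 above 0. With SKF present, iBD2 gave 0 calls by limma (background 0.0214%, 0.0143% higher), 9 with an unadjusted p under 0.05, and 0 by voom, from the lone library that is assumed to vary like the others. The effects of JQ1 and iBD2 differed for 0 very long genes by limma (background 0.907%) and for 0 by voom. At an unadjusted p under 0.05 they differed for 8, beside 1198 of the 13999 tested genes. Because the labels give no doses and the inhibitors were used in different experiments, compound, dose and experiment cannot be told apart in that contrast.

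After 24 h of JQ1 the picture was different, and the very long genes fell more often than they rose. Against DMSO, 127 of 309 (41.1%) were lower and 51 (16.5%) higher, where 28.6% of all tested genes were lower and 28.1% higher (56.7% in all). With SKF present, 137 (44.3%) were lower and 49 (15.9%) higher, where the shares over all genes were 28.7% and 27.7% (56.4% in all). The median log2 change of the very long genes was −0.10 without SKF and −0.14 with it, beside 0.01 and 0.00 over all tested genes. Without JQ1 replicate 6 the count of higher genes in the first comparison was 29. On FPKM as deposited, with no size factor, 159 were lower and 27 higher without SKF, and 164 lower and 36 higher with it, so the share of higher among called very long genes went from 28.6% to 14.5% and that among all called genes from 49.6% to 34.3%.

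The shift was present in each library. Relative to the DMSO libraries of experiment 3, the median of the very long genes minus that of the shorter genes was −0.16 and −0.10 in the JQ1 libraries (replicates 5 and 6) and −0.23 and −0.12 in the SKF plus JQ1 libraries. It was −0.04 and 0.04 in the DMSO libraries and −0.03 and −0.02 in the SKF libraries. The 4 libraries with JQ1 at 24 h were the lowest of all 23, and none of the 60 min libraries went below −0.07. Replicate 5 was below replicate 6 in all 8 groups of experiments 1 and 3, with and without JQ1.

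**Figure D2:**
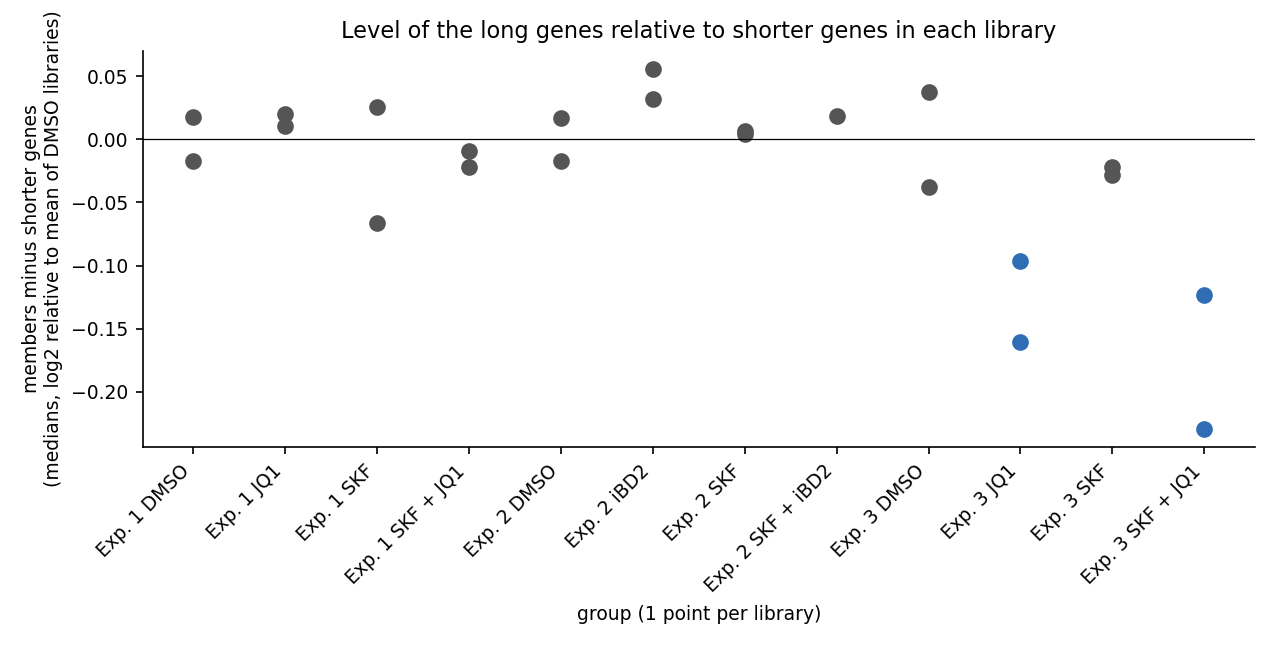
Median log2 level of the tested very long genes minus that of the shorter genes in each library, relative to the mean of the DMSO libraries of the same experiment (1 point per library, blue for JQ1 at 24 h). The 4 blue points lie between −0.23 and −0.10, below all other libraries.

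As a set, genes of shorter span weighted to the same FPKM did not lean this way. The weighting was by FPKM and not by role. On most lists by role given below, shorter genes also fell more often than they rose without SKF. The RNA-binding and the transcription factor and chromatin lists were the exceptions. Weighted to the FPKM classes of the very long genes, 26.8% of the shorter genes were lower and 31.02% higher with JQ1 alone, and 27.4% and 30.4% with SKF present. In every FPKM class the very long genes had the larger share of lower calls with JQ1 alone. From 4 to 8 FPKM it was 51.9% of 54 very long against 29.1% of shorter genes, and at 16 FPKM and over 37.3% of 118 against 20.9%. Under 1 FPKM, with only 16 very long genes, the shares were close, at 37.5% and 36.1%. The overall share called in either direction was alike, 57.6% of the very long and 57.9% of the weighted shorter genes.

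The lean appeared from 100 kb upward. With JQ1 alone, 24.7% of the genes under 10 kb were lower and 28.4% higher, and from 30 to 100 kb the shares were 28.4% and 30.4%. From 100 to 300 kb, 37.7% were lower and 23.8% higher. Among the very long genes the shares were 39.4% lower and 19.7% higher at 300 to 500 kb, and 45.7% lower and 8.64% higher at 500 to 1000 kb. Of the 15 genes of 1000 kb or more, 6 were lower and 2 higher. Among the longest named above, Luzp2, Il1rapl1 (−0.54 ± 0.09) and Il1rapl2 (−0.40 ± 0.11), which encodes a receptor accessory protein like Il1rapl1, were lower and Mycbp2 (0.34 ± 0.09) and Nrxn3 (0.21 ± 0.08) higher without SKF. The Il1rapl2 call was lost without DMSO replicate 5 (limma adjusted p = 0.066) and the Mycbp2 call without JQ1 replicate 6 (adjusted p = 0.073). Within the very long genes the rank correlation of span with log2 change was weak, at −0.09 without SKF and −0.10 with it (Spearman's rho across 309 genes of the same libraries, which are not independent).

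Genes whose most abundant transcript was itself long and those where it was not gave similar counts. With JQ1 alone at 24 h, 111 of the 271 with a long main transcript were lower and 43 higher, a median change of −0.10. Of the 38 with a shorter main transcript, 16 were lower and 8 higher, a median of −0.09.

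Markers of other cells also moved at 24 h, and in bulk samples fewer cells of a type and less RNA per cell cannot be told apart. All 11 of 11 microglia markers fell with JQ1, their summed level going from 84.4 to 102 FPKM to 13.7 to 17.96, and from 37.4 to 51.8 with SKF to 2.11 to 3.59 with SKF plus JQ1. None of the very long genes is on that list. General neuronal markers summed to 2131 to 2334 FPKM with DMSO and 1950.3 to 2035 with JQ1, and to 2155 to 2165 with SKF and 1779 to 1964 with SKF plus JQ1, with 2 of 10 shorter ones higher and 5 lower. Striatal projection neuron markers summed to 1175 to 1316 FPKM and 1188 to 1309 (with SKF 1288 to 1326 and 1076 to 1249.7), sums that Gad1 and Gad2 dominate. Of the 16 striatal markers, 3 were lower without SKF (Drd1 by log2 −1.07, Adora2a −0.98 and Pdyn −0.97) and 3 higher (Isl1 0.37, Six3 0.33 and Bcl11b 0.17), and with SKF 7 were lower and 4 higher. Astrocyte markers summed to 416 to 500.4 and 355 to 417 FPKM (with SKF 399 to 421 and 394 to 520). Of these, Aqp4, Gja1, Aldoc and Slc1a2 were lower without SKF and none was higher. With SKF, Aqp4 and Aldoc were lower and Gfap, Slc1a3, Sox9 and Fgfr3 higher. Oligodendrocyte lineage markers summed to 52.8 to 61.3 and 58.4 to 71.5 (with SKF 52.3 to 52.5 and 63.6 to 79.3). Excitatory neuron and interneuron markers summed to 437 to 447 and 421 to 441 (with SKF 430 to 447 and 466 to 471). Cell cycle genes summed to 28.2 to 28.99 and 43.96 to 45.96 (with SKF 27.4 to 28.2 and 46.6 to 48.6), sums that Pcna dominates. Without SKF, Pcna, Mki67, Top2a, Cdk1 and Aurkb were called higher, and Ccnb1, Mcm2 and Mcm5 were not called. The part of cell makeup in the change of the very long genes was not tested.

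Among single genes, Nalcn, Rbms3 and Mtus2 were among those with the largest falls. Nalcn (chromosome 15, 109735595 to 110046704) read 7.94 and 8.73 FPKM with DMSO, 2.82 and 3.07 with JQ1, 7.45 and 8.05 with SKF, and 2.54 and 2.799 with SKF plus JQ1. Rbms3, which encodes an RNA-binding protein (chromosome 8, 124661839 to 125645898), read 15.95 and 16.4 FPKM with DMSO, 6.01 and 6.35 with JQ1, 14.9 and 15.3 with SKF, and 5.601 and 5.01 with SKF plus JQ1. Mtus2, a microtubule-associated gene (chromosome 12, 8111667 to 8418966), read 4.84 and 5.71 FPKM with DMSO, 1.85 and 1.96 with JQ1, 4.67 and 5.12 with SKF, and 1.35 and 1.46 with SKF plus JQ1. In all 3 genes every library with JQ1 lay below every library without it. Lack of overlap within each comparison was a condition for choosing these genes. The log2 changes of Nalcn were −1.36 ± 0.07 without SKF and −1.38 ± 0.07 with it (limma adjusted p = 3.3e-10 and 2.4e-10). Those of Rbms3 were −1.32 ± 0.08 and −1.43 ± 0.08 (adjusted p = 5.6e-10 and 2.2e-10), and those of Mtus2 −1.26 ± 0.08 and −1.50 ± 0.08 (adjusted p = 2.8e-09 and 3.7e-10).

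Pld5 is a gene of the phospholipase D family (chromosome 13, 94025369 to 94355219) whose most abundant transcript spanned under 300 kb. It had the largest fall with SKF present. It read 2.61 and 2.22 FPKM with DMSO, 0.8697 and 0.7899 with JQ1, 2.503 and 2.46 with SKF, and 0.508 and 0.485 with SKF plus JQ1, and its log2 changes were −1.13 ± 0.09 and −1.58 ± 0.09 (limma adjusted p = 3.3e-08 and 7.0e-10). Other large falls without SKF were those of Slc9a9, an endosomal sodium-proton exchanger (−1.27 ± 0.12), Ldb2, a cofactor of LIM-domain transcription factors (−1.26 ± 0.11), Itga8, an integrin subunit (−1.19 ± 0.09), and the unnamed locus AABR07049085.1 (−1.12 ± 0.18). With SKF they also included Myo5b, a motor of recycling endosomes (−1.45 ± 0.14), and Mctp1, a membrane protein with calcium-binding C2 domains (−1.17 ± 0.09). Luzp2, a leucine zipper protein gene that spans 1678 kb, fell by nearly the same amount in both comparisons (−1.05 ± 0.07 and −1.09 ± 0.07). For AABR07049085.1 the call with SKF (−0.49) was lost without SKF replicate 6 (−0.28, adjusted p = 0.30) or SKF plus JQ1 replicate 5 (−0.34, adjusted p = 0.22).

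The rises were smaller. Mad1l1, a gene of the spindle checkpoint (chromosome 12, 16410083 to 16719824), read 2.22 and 1.79 FPKM with DMSO, 4.22 and 4.25 with JQ1, 1.83 and 2.06 with SKF, and 3.97 and 4.15 with SKF plus JQ1. Snd1, which encodes a nuclease and transcriptional coactivator (chromosome 4, 55772377 to 56171668), read 20.3 and 19.2 FPKM with DMSO, 29.7 and 29.6 with JQ1, 19.6 and 20.8 with SKF, and 31.6 and 32.6 with SKF plus JQ1. Glcci1 (chromosome 4, 34282625 to 34614438) read 21.1 and 24.1 FPKM with DMSO, 34.6 and 34.7 with JQ1, 24.1 and 25.2 with SKF, and 35.1 and 36.6 with SKF plus JQ1. In these 3 genes all libraries with JQ1 lay above all without it, and lack of overlap within each comparison was again a condition of the choice. The log2 changes of Mad1l1 were 0.93 ± 0.10 and 0.90 ± 0.10 without and with SKF (limma adjusted p = 6.4e-07 and 8.6e-07), those of Snd1 0.57 ± 0.04 and 0.65 ± 0.04, and those of Glcci1 0.61 ± 0.06 and 0.53 ± 0.06. Glcci1, which also rose with SKF at 60 min, had a change of 0.13 ± 0.06 with SKF alone at 24 h (adjusted p = 0.53).

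Prkca, the gene of protein kinase C alpha, rose by 0.59 ± 0.06 without and 0.50 ± 0.06 with SKF, and Dnm3, a dynamin that acts in membrane scission, by 0.57 ± 0.06 and 0.58 ± 0.06. Itpr1, the receptor that releases calcium from internal stores, rose by 0.54 ± 0.11 and 0.55 ± 0.11, the X-linked locus AABR07037451.2 by 0.58 ± 0.05 and 0.67 ± 0.05, and Ascc3, a helicase gene, by 0.49 ± 0.06 and 0.52 ± 0.06. Dpyd, an enzyme of pyrimidine breakdown, rose by 0.67 ± 0.14 with SKF and by 0.49 ± 0.14 without it, where the adjusted p rose to 0.11 when DMSO replicate 6 was left out and to 0.064 when JQ1 replicate 6 was. Reln, which encodes the secreted guidance protein reelin, varied more between libraries, at 13.3 and 16.2 FPKM with DMSO, 19.1 and 25.9 with JQ1, 14.8 and 17.2 with SKF, and 17.7 and 25.6 with SKF plus JQ1. Replicate 6 was the higher in each pair. Its rise without SKF (0.59 ± 0.18, limma adjusted p = 0.013) was lost without JQ1 replicate 6 (0.37, adjusted p = 0.15) or DMSO replicate 5 (0.45, adjusted p = 0.12). With SKF its change was 0.41 ± 0.18 (adjusted p = 0.071), and without SKF plus JQ1 replicate 5 0.66 (adjusted p = 0.010).

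**Figure D3:**
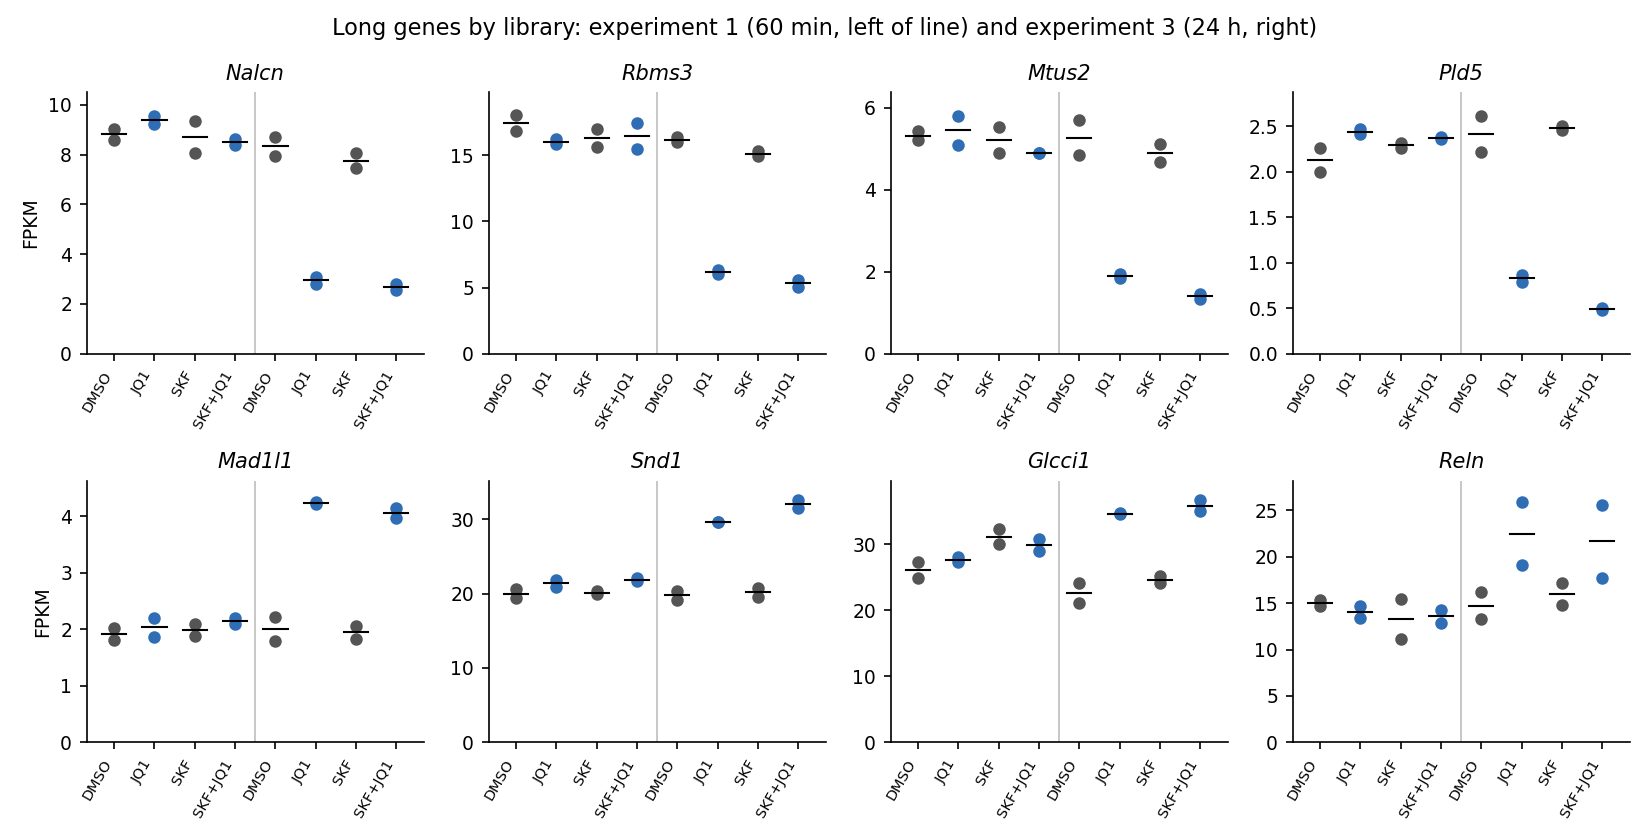
FPKM divided by the size factor in each library of experiments 1 (60 min, left of the line) and 3 (24 h, right) for 8 very long genes, with the mean of each group as a bar and libraries with JQ1 in blue. At 24 h Nalcn goes from 7.94 and 8.73 FPKM with DMSO to 2.82 and 3.07 with JQ1 and Mad1l1 from 2.22 and 1.79 to 4.22 and 4.25, whereas at 60 min the JQ1 and DMSO libraries of these genes lie close together.

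By role, cell adhesion molecules and synaptic organizers were the largest group. The counts of each list below stand beside 28.6% lower and 28.1% higher over all tested genes, and 41.1% and 16.5% over all very long genes, without SKF. Of 31 very long ones, 14 fell and 2 rose without SKF, and 18 fell and 1 rose with it, with medians of −0.21 and −0.25. Shorter genes of the same list had 22 lower and 17 higher of 58 without SKF, a median of −0.04. Cntn6, a contactin of the axon surface, changed by −1.02, the postsynaptic organizer Lrrtm4 by −0.81, the contactin-associated gene Cntnap5c by −0.48 and the cadherin gene Cdh13 by −0.43 on the log2 scale without SKF, and all 4 also fell with SKF. Nrxn3 read 71.3 and 82.1 FPKM with DMSO, 86.9 and 90.4 with JQ1, 77.8 and 79.7 with SKF, and 81.3 and 89.1 with SKF plus JQ1. It passed without SKF (0.21 ± 0.08, limma adjusted p = 0.035) and not with it (0.11 ± 0.08, adjusted p = 0.26), and the former call was fragile. Its adjusted p was 0.33, 0.063 and 0.15 when DMSO replicate 5, JQ1 replicate 5 and JQ1 replicate 6 were left out, and 0.15 on FPKM as deposited.

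Synaptic scaffold, vesicle and release genes came next. Of 22 very long ones, 14 fell and 2 rose without SKF, and 15 fell and 2 rose with it, with medians of −0.23 and −0.32. Their shorter counterparts had 15 lower and 14 higher of 44 without SKF, a median of 0.01. Nkain3, which encodes a partner of the sodium pump, changed by −1.04 ± 0.11 without SKF, Unc13c, a vesicle priming gene, by −0.61 ± 0.08, the synapsin gene Syn3 by −0.61 ± 0.05 and the potassium channel partner Dpp6 by −0.50 ± 0.07. Dlg2, the postsynaptic scaffold PSD-93, read 60.6 and 72.5 FPKM with DMSO, 52.3 and 53.5 with JQ1, 67.2 and 66.6 with SKF, and 44.6 and 53.2 with SKF plus JQ1. The JQ1 libraries were below the others in both comparisons (−0.32 ± 0.08 and −0.45 ± 0.08, limma adjusted p = 0.0023 and 0.00012), and the call without SKF was lost without DMSO replicate 6 (adjusted p = 0.061). Syt1 did not pass (−0.03 ± 0.07 and −0.11 ± 0.07, adjusted p = 0.78 and 0.18), except with SKF on FPKM as deposited (−0.18, adjusted p = 0.010) or without SKF plus JQ1 replicate 6 (−0.21, adjusted p = 0.031).

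Axon guidance genes were mixed. Of 15 very long ones, 5 fell and 1 rose without SKF, and 5 fell and 1 rose with it, with medians of 0.02 and −0.03, and the shorter ones had 21 lower and 11 higher of 47 without SKF. The netrin receptor Dcc changed by −0.46 ± 0.06 without SKF, the semaphorin receptor Plxna4 by −0.37 ± 0.08, the semaphorin Sema5a by −0.25 ± 0.07 and the ephrin receptor Epha5 by −0.20 ± 0.06. The calls of Sema5a and Epha5 without SKF were lost without JQ1 replicate 5 (adjusted p = 0.061 and 0.14) and without 1 DMSO library (replicate 6 for Sema5a, adjusted p = 0.11, and replicate 5 for Epha5, adjusted p = 0.055). Of 6 receptor tyrosine phosphatases of the very long set, 2 fell and 1 rose without SKF, and 2 fell and 1 rose with it (shorter ones 6 lower and 3 higher of 11 without SKF). On the guidance and phosphatase lists, the share of lower genes without SKF was larger among the shorter genes than among the very long ones. Ptprm (−0.45) and Ptprk (−0.29) fell without SKF and Ptprg rose (0.42), while Ptprt had −0.16 (limma adjusted p = 0.090, and 0.035 without DMSO replicate 5) and Ptprd 0.09 (adjusted p = 0.12).

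Of 14 receptors and related signalling genes, 7 fell and 1 rose without SKF, and 6 fell and 2 rose with it (shorter ones 18 lower and 3 higher of 39 without SKF). The sorting receptor Sorcs2 changed by −0.54 ± 0.06 without SKF and the glypican Gpc3 by −0.52 ± 0.12. Erbb4, the neuregulin receptor, changed by −0.16 ± 0.05, a call whose adjusted p rose to 0.11 when DMSO replicate 6 was left out and to 0.093 when JQ1 replicate 5 was. Of 12 tested kinase and signalling genes among 14, 3 fell and 3 rose without SKF, and 4 fell and 3 rose with it (shorter ones 20 lower and 7 higher of 48 without SKF). On this list too, the share of lower genes without SKF was larger among the shorter genes. On the receptor list the shares were close, 7 of 14 very long and 18 of 39 shorter genes. The calmodulin kinase gene Camk1d (−0.71), the diacylglycerol kinase gene Dgkb (−0.71) and the phosphoinositide phosphatase gene Inpp4b (−0.67) fell, opposite to Prkca.

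Of 16 cytoskeletal genes, 6 fell and 4 rose without SKF, and 7 fell and 3 rose with it (shorter ones 11 lower and 9 higher of 39 without SKF). The formin gene Fhod3 (−0.95), the dystrophin relative Utrn (−0.61) and the actomyosin regulator Limch1 (−0.49) fell without SKF. Dmd read 4.35 and 3.98 FPKM with DMSO, 4.004 and 4.18 with JQ1, 4.03 and 3.78 with SKF, and 4.16 and 3.67 with SKF plus JQ1, with overlap between the groups (−0.02 ± 0.09, limma adjusted p = 0.85), and voom gave −0.19 (adjusted p = 0.024). Ank2 had 0.00 (adjusted p = 0.99).

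Of 5 neuronal RNA-binding genes, 2 fell and 0 rose without SKF, and 2 fell and 1 rose with it (shorter ones 7 lower and 9 higher of 30 without SKF). Rbfox1, a splicing regulator of neurons, read 35.03 and 41.2 FPKM with DMSO, 24.2 and 25.1 with JQ1, 39.96 and 38.6 with SKF, and 21.6 and 24.1 with SKF plus JQ1. Every library with JQ1 was below every library without it (−0.62 ± 0.07 and −0.77 ± 0.07, limma adjusted p = 2.3e-06 and 1.8e-07). Celf2 had 0.10 without SKF (adjusted p = 0.093) and rose with it (0.17, adjusted p = 0.0053), a call lost without SKF replicate 5 (adjusted p = 0.092) and on FPKM as deposited (adjusted p = 0.16). Msi2 had 0.13 without SKF (adjusted p = 0.16). Of 15 transcription factor and chromatin genes, 5 fell and 2 rose without SKF, and 3 fell and 2 rose with it (shorter ones 18 lower and 21 higher of 68 without SKF). The neural factor Sox5 (−0.61) and the mineralocorticoid receptor Nr3c2 (−0.57) fell without SKF, and the homeodomain factor Pbx3 rose (0.31). Of 27 tested genes on the remaining list, of fragile sites and other very large genes, 11 fell and 6 rose without SKF, and 11 fell and 3 rose with it (shorter ones 8 lower and 4 higher of 20 without SKF). Besides Slc9a9, the largest falls by p on that list were Fars2, a mitochondrial tRNA synthetase (−0.72), the lipid flippase Atp8a2 (−0.63) and Tmem132b (−0.55), while Csmd1 had 0.00 (limma adjusted p = 0.98). At 60 min of JQ1 alone, limma called 1 of all 309 very long genes (0.324%) and 4.4% of all tested genes. It called 0 very long genes on each of these 10 lists, which at so low a share sets no list apart.

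**Figure D4:**
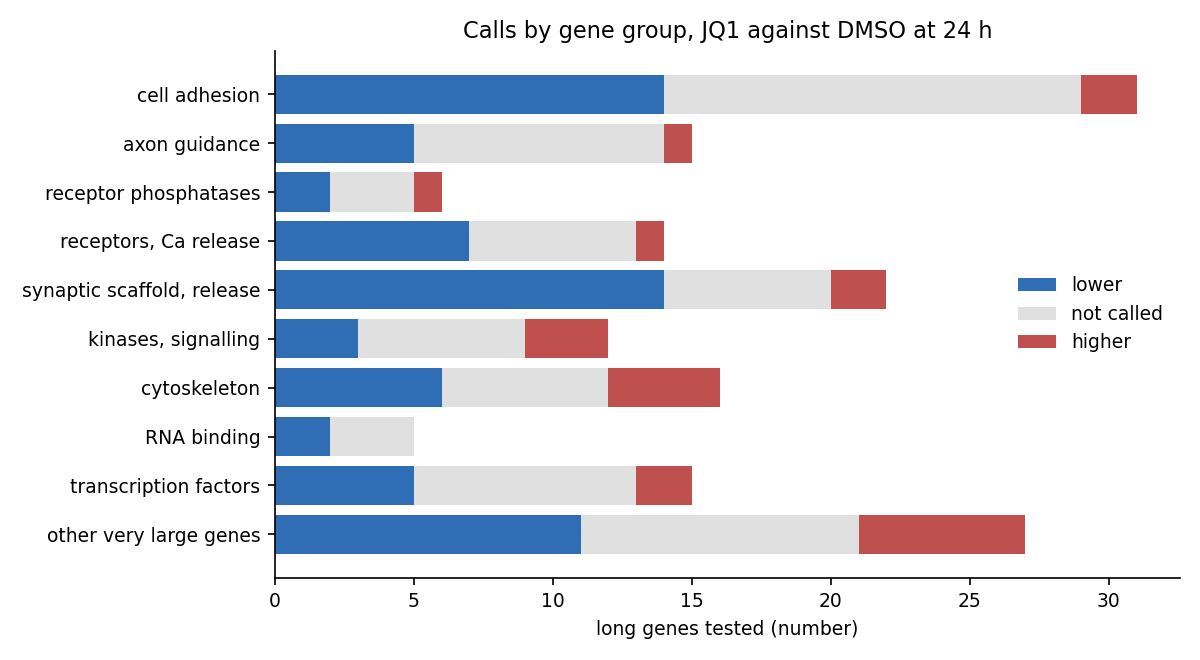
Number of tested very long genes on each list that were lower (blue), not called (grey) or higher (red) with JQ1 against DMSO at 24 h. Of 22 synaptic scaffold and release genes 14 are lower, and of 31 cell adhesion genes 14.

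The genes of the elongation machinery itself, none of which is very long, were more often higher than lower. Of 31 tested BET, P-TEFb, elongation and topoisomerase genes, 20 rose and 3 fell with JQ1 alone at 24 h, and 18 rose and 1 fell with SKF present, with medians of 0.27 and 0.28, where 28.1% and 27.7% of all tested genes were higher. At 60 min of JQ1 alone, 3 rose and 0 fell, where 1.86% of all tested genes were higher.

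The 24 h comparisons with and without SKF share no library, so their calls can be set side by side. Of the 127 very long genes lower without SKF and the 137 lower with it, 116 were lower in both, 91.3% of the first list and 84.7% of the second. Of the 51 and 49 higher ones, 41 were higher in both (80.4% and 83.7%), and among the very long genes 0 were called in opposite directions. Over all tested genes the overlaps were 84.8% and 84.5% for lower and 83.3% and 84.4% for higher genes, near those of the very long genes. Across the 309 genes the log2 changes correlated with Pearson's r of 0.94 and Spearman's rho of 0.92, a description of genes in shared experiments, and across the shorter genes with 0.91 and 0.91. At 60 min the same values were 0.09 and 0.05 for the very long and 0.57 and 0.47 for the shorter genes. The interaction of SKF and JQ1 at 24 h was called for 0 very long genes by limma (background 0.0429%, 0.0286% higher and 0.0143% lower) and 0 by voom. An unadjusted p under 0.05 was found for 18 of them, beside 802 of the 13999 tested genes.

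**Figure D5:**
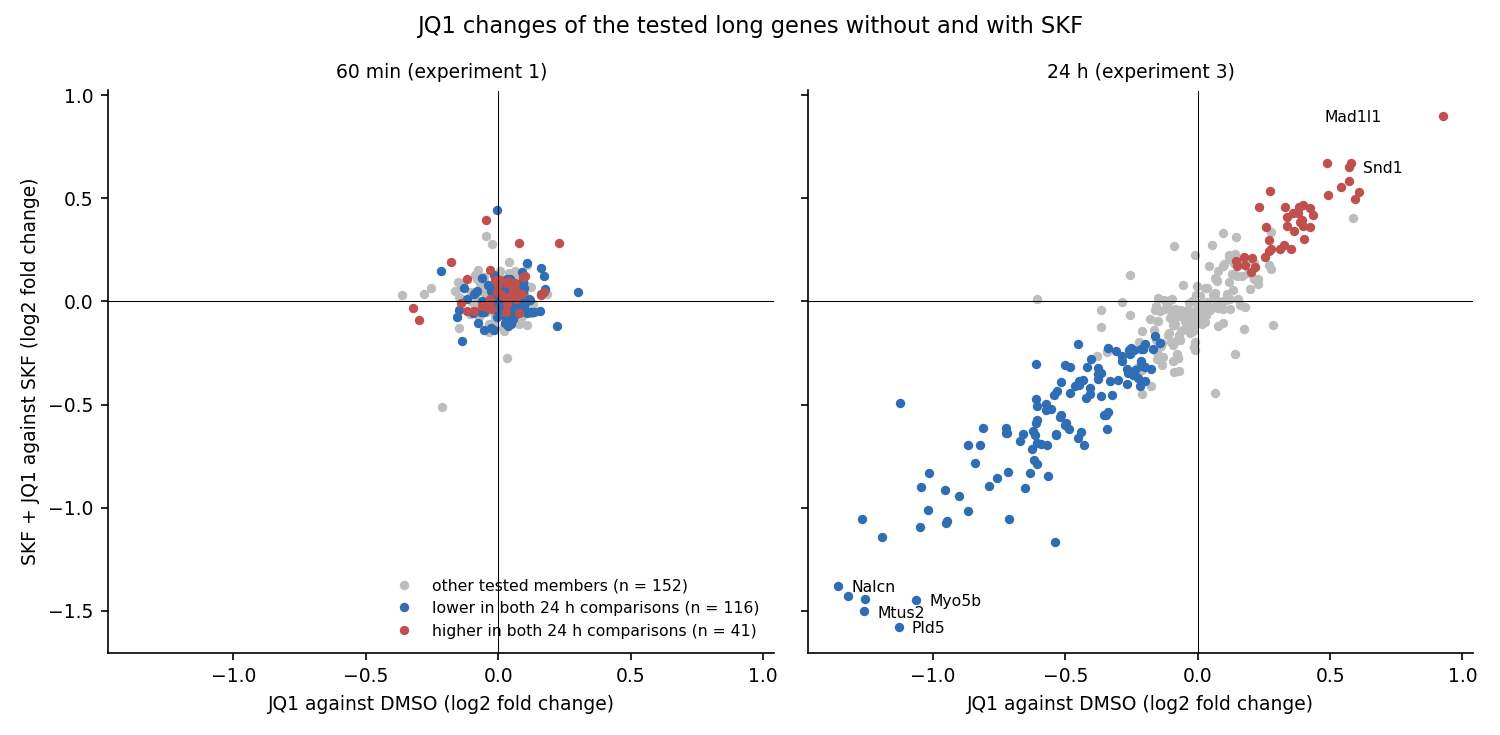
Log2 fold change of each of the 309 tested very long genes with JQ1 in the absence (horizontal) and presence (vertical) of SKF, at 60 min and at 24 h, with the 116 genes lower in both 24 h comparisons in blue and the 41 higher in both in red. At 60 min the points gather around 0, and at 24 h they lie along the diagonal from Nalcn at −1.36 and −1.38 to Mad1l1 at 0.93 and 0.90.

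The change of the JQ1 effect between the times was tested directly, each effect taken against the DMSO group of its own experiment. By limma, 100 very long genes had a lower and 29 a higher effect at 24 h than at 60 min, where 19.6% and 17% of all tested genes did. The number of higher ones was 19 without JQ1 replicate 5 of experiment 1 and 18 without DMSO replicate 5 of experiment 3. The median difference was −0.12 for the very long genes and 0.01 over all tested genes. Nalcn had the largest fall (−1.45 ± 0.10, adjusted p = 6.8e-08) and Mad1l1 the largest rise (0.86 ± 0.14, adjusted p = 0.00016). AABR07064873.1, lower at 60 min, was higher at 24 h with SKF present (0.54, adjusted p = 2.4e-05), and without SKF the time contrast gave a difference of 0.57 ± 0.11. Time and experiment cannot be told apart in this contrast.

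SKF alone for 24 h lowered 3 very long genes and raised 0 by limma, against 0.857% and 0.636% of all tested genes (1.49% in all). At an unadjusted p under 0.05, 27 were lower and 3 higher, beside 780 and 584 of the 13999 tested genes. With voom, 4 very long genes were lower and 0 higher. Nos1, the neuronal nitric oxide synthase of striatal interneurons, read 16.9 and 16.3 FPKM with DMSO, 9.92 and 9.78 with JQ1, 12.9 and 13.9 with SKF, and 8.13 and 8.71 with SKF plus JQ1. It was lower with SKF alone (−0.30 ± 0.05, limma adjusted p = 0.0062) and lower still with JQ1 (−0.72 ± 0.05, adjusted p = 1.3e-08), with no overlap between the DMSO, SKF and JQ1 libraries. The secreted Nell1 read 6.54 and 6.46 FPKM with DMSO, 3.24 and 3.43 with JQ1, 5.22 and 5.55 with SKF, and 3.09 and 3.17 with SKF plus JQ1. Its change with SKF alone was −0.25 ± 0.06 (adjusted p = 0.038) and with JQ1 alone −0.87 ± 0.06 (adjusted p = 3.4e-09). Sorcs1, a sorting receptor, had −0.18 ± 0.04 with SKF alone (adjusted p = 0.049). The calls of all 3 with SKF were lost without DMSO replicate 5 (adjusted p = 0.10 for Nos1, 0.24 for Nell1 and 0.27 for Sorcs1) and without SKF replicate 5 (adjusted p = 0.11, 0.31 and 0.14). Those of Nell1 and Sorcs1 were also lost without either replicate 6, and none passed when experiment 3 was fitted alone. The difference between the SKF effects at 24 h and 60 min was called for 1 very long gene by limma (background 2.45%), Nell1 (−0.36 ± 0.07, adjusted p = 0.0088), and its adjusted p rose to 0.073 when SKF replicate 5 of experiment 3 was left out and to 0.051 when DMSO replicate 5 was.

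The 300 kb limit cut through a continuous range. Just inside it were Jazf1 (301 kb), Myo5b, Specc1, Ptprg and Celf2 (303 kb), with log2 changes of −0.38, −1.06, 0.23, 0.42 and 0.10 with JQ1 alone at 24 h. Just outside were Ndst4 (299.9 kb), Wdr7, Atg10, Spon1 and Tox (297 kb), with −0.63, 0.30, 0.06, −0.25 and −0.23.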

How the data were processed

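Stranded libraries of total RNA without ribosomal RNA were made per the labels' protocols, and the submitters' processing notes name Trim Galore, FastQC, STAR, StringTie, DESeq2 and build Rnor_6.0, with no settings. The deposited FPKM per transcript, and the deposited coverage signal used only for depth, came from the authors. FPKM of 41078 transcripts were summed to 32883 genes in 23 libraries, and genes with FPKM of at least 0.5 in 2 libraries and a transcript of at least 200 nucleotides were kept. Values were divided by median-ratio size factors, and log2(FPKM + 0.5) was fitted with limma 3.58.1 in R 4.3.3, 1 mean per group, 11 residual degrees of freedom, p-values adjusted over all tested genes by Benjamini-Hochberg. No counts were used, apart from voom on reads estimated from coverage as an alternative. Sums, shares and figures used Python 3.11.15 with pandas 2.3.3, numpy 2.4.6 and matplotlib 3.10.9, and the code was tested on simulated data. The genes named were the 8 largest rises and falls per comparison without overlap of libraries, up to 4 per list by smallest p at 24 h of JQ1, those called alike with and without SKF, the 10 longest and 10 most abundant, those next to the 300 kb limit, and some well-known long genes. Some genes that this rule takes are not reported here. Members and lists were chosen with earlier results of these data known. Alternatives changed the scaling, pseudocount, filter, model, span limit and members, and left out each library.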

Additional observations from a re-analysis of the deposited data

Results flagged for a closer look

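The effect of JQ1 differed between 24 h and 60 min for 41.7% of the very long genes by limma's test of the difference. It was lower at 24 h for 100 and higher for 29. Over all tested genes the test called 36.6%, with 19.6% lower and 17% higher. The very long genes named here passed that test, and the times come from different experiments. Among the lower ones the log2 differences were −1.45 for Nalcn, −1.32 for Ldb2, −1.32 for Car10, −1.30 for Slc9a9, −1.29 for Pld5, −1.29 for Mtus2, −1.20 for Rbms3 and −1.16 for Myo5b. Car10 encodes a carbonic anhydrase relative found in neurons. Among the higher ones they were 0.86 for Mad1l1, 0.72 for Mipol1, 0.69 for Reln, 0.58 for AABR07037451.2, 0.57 for AABR07064873.1, 0.57 for Pclo, 0.57 for Prkca and 0.54 for Dnm3. The most abundant transcripts of Pld5 and AABR07064873.1 spanned under 300 kb. The Reln difference no longer passed without JQ1 replicate 6 of experiment 3 (0.47, limma adjusted p = 0.19), and that of Pclo without DMSO replicate 5 of experiment 3 (0.44, limma adjusted p = 0.16), and both were lost in further fits that left out a library of the JQ1 or DMSO groups.

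The effect of SKF differed between 24 h and 60 min for Nell1, by −0.36 on the log2 scale.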

How the results depend on the processing

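No direction of a called result reversed under the alternatives run. On FPKM as deposited, the median change of the very long genes with JQ1 at 24 h was −0.19 without and −0.20 with SKF, and −0.18 for the difference between times. The share of higher genes was then 8.74% without SKF and 5.50% for that difference, and the share called was 0.971% with SKF at 60 min and 0.324% at 24 h. With JQ1 alone at 24 h the median of all genes was 0.01 under the main scaling and −0.08 as deposited. The very long genes lay −0.11 from it under both scalings. With SKF present that median was 0.00 and −0.06, and the very long genes lay −0.14 from it under both. At a limit of 500 kb the higher share was 9.38% without and 8.33% with SKF (median −0.19) and 3.13% for the difference between times, and the share called was 1.04% for SKF in experiment 2 and for the SKF difference between times, and 0 for SKF in experiment 1, for both experiments and for JQ1 at 60 min. At 200 kb the share called was 0.495% for JQ1 at 60 min and 0.825% with SKF present, 0.660% for SKF at 60 min and its difference between times, and 1.16% in experiment 2. With the set-aside families it was 0.597% for SKF at 60 min and in experiment 1, 0.896% for the SKF difference and 0.299% for JQ1 with SKF at 60 min. Each experiment fitted alone gave 0 calls for JQ1 at 60 min, SKF at 24 h and SKF in experiment 1. Without a filter, JQ1 at 60 min and SKF in experiment 1 had 0 calls, the latter also with a pseudocount of 0.1 or size factors from short genes. JQ1 at 60 min had 0 among genes with a symbol and among those with a long main transcript. A mean of at least 1 FPKM gave 1.02% for SKF in experiment 2. With voom the shares were 0.647% for SKF at 60 min and for its difference between times, and 0.324% for JQ1 with SKF at 60 min. The cause of these shifts was not tested, beyond the fewer or other genes that some settings hold.

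Leaving out each library in turn, with JQ1 alone at 24 h the median ran from −0.15 to −0.087, the higher share from 9.39 to 16.8% and the lower share from 32.0 to 42.1%. With SKF these ran from −0.19 to −0.11, from 12.3 to 16.5% and from 37.2 to 44.98%. For the difference between times they ran from −0.16 to −0.09, from 5.83 to 9.71% and from 26.9 to 34.3%. The share called ran from 0 to 0.647% for JQ1 at 60 min and for the SKF difference between times, from 0 to 0.971% for SKF at 24 h and in experiment 2, from 0 to 0.324% for SKF in experiment 1 and JQ1 with SKF at 60 min, and from 0.324 to 0.647% for SKF over both experiments. It was 0 in every such fit for iBD2, the interactions and the contrast of the inhibitors.

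Replicate numbers were not taken to pair the libraries, since the labels tie them to no shared source and not every correlation was positive, although replicate 5 was below replicate 6 in the relative level of the very long genes in all 8 groups of experiments 1 and 3. The correlations of deviations between groups ran from −0.27 to 0.37 (experiment 1), −0.12 to 0.34 (the iBD2 experiment) and −0.23 to 0.37 (the 24 h experiment). With a replicate block the share called was 0 for JQ1 at 60 min and 0.324% each for SKF at 24 h, SKF in experiment 2 and JQ1 with SKF at 60 min, and Reln with SKF at 24 h passed (0.41, limma adjusted p = 0.0044).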

Other observations

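The genes of 300 kb or more in the families set aside, which hold channels, phosphodiesterases and neuronal transcription factors, leaned the same way. Of 26 tested, 12 (46.2%) were lower and 4 (15.4%) higher with JQ1 alone at 24 h by limma. With SKF present, 14 (53.8%) were lower and 4 (15.4%) higher. The shares of the very long genes were 41.1% and 16.5% without SKF, and 44.3% and 15.9% with it. Over all tested genes they were 28.6% and 28.1% without SKF, and 28.7% and 27.7% with it.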
